A study of Homo sapiens with 6 samples.

Results

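The genes described here are cytokines, chemokines, NF-kB and IkB proteins and genes of the NF-kB response, chosen by name from a list of 47. The deposited table of 14959 genes held 43 of them. CXCL5, CCL2, IL33 and CSF2 were not in the table used here. SOD2 took 2 rows, and the row of ENSG00000112096 stands for the gene below, because the other row (ENSG00000285441, which shares exon bases with it) was at a mean of only 0.0544 FPKM with control mimics. A mean FPKM of at least 1 was reached by 31 of the 43 genes, and 12 stayed below it. All 43 entered the test, since no filter on low values was used.

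RNA was sequenced from UM-SCC1, a human cell line established from a squamous cell carcinoma of the head and neck. In 3 cultures the cells had been transfected with miR-204-5p mimics and in 3 with control mimics. A mimic is a synthetic RNA duplex that cells load as they load the mature miRNA. The general transfection protocol of the study gives 48 h of culture before harvest and no separate time for these libraries. Expression was given as FPKM, the sequenced fragments of a gene scaled to transcript length and to the mapped total of the library. The table lists 1 transcript for each gene, and whether its length was the one used is not given in the sources used here. Differences are given as log2 fold changes of FPKM + 1, miR-204-5p mimics over control mimics, and a gene was called where limma's adjusted p over all genes was under 0.05. On this scale the change of a gene with a low FPKM is understated.

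The libraries of one group had a Spearman correlation of 0.990 to 0.991 across genes and libraries of different groups one of 0.973 to 0.976, so no library stood apart from its group. Together the 43 genes made up 0.293% to 0.310% of the summed FPKM of a library. The number of reads behind a value is not given in the table. Among 1175 genes with a single annotated transcript, values spaced by a smallest step were found, equal to 0.0303 to 0.0381 FPKM on a transcript of 1 kb, but only 48.4% to 69.6% of low values lay within 3% of a step from a whole multiple, so read counts were not recovered. Squamous markers were plain in these cells, with KRT14 at 117.7 ± 2.66 (SD, n = 3) FPKM and TP63 at 55.9 ± 1.48 FPKM with control mimics. Both KRT14 and TP63 were called lower with miR-204-5p mimics. Among 10 squamous markers 5 fell and 4 rose (90.0% called, against 40.8% of all genes). The leukocyte gene PTPRC stayed at 0.138 ± 0.0161 FPKM with control mimics and 0.293 ± 0.220 FPKM with miR-204-5p mimics.

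NF-kB is a family of dimeric transcription factors made from RELA, RELB, REL and the products of NFKB1 and NFKB2. IkB proteins hold these dimers in the cytoplasm until a signal from a cytokine receptor, a Toll-like receptor or a related sensor has the IkB degraded. The freed dimers switch on cytokines and chemokines, and also IkB genes and TNFAIP3, which shut the signal off again. In squamous carcinoma this program is known for the secretion of IL-1, IL-6 and the neutrophil-attracting CXC chemokines.

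A miRNA lowers an mRNA mainly through its seed, bases 2 to 8, which pairs with a complementary stretch in the 3'UTR. The mature sequence is given first, from RefSeq on GRCh38.p14 (chr9:70810031-70810052, minus strand), with the seed in capitals.
hsa-miR-204-5p: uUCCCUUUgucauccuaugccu
Complements of this seed are AAAGGGAA (8mer), AAAGGGA (7mer-m8) and AAGGGAA (7mer-A1). In the longest protein-coding 3'UTR of each gene in GENCODE 29, such a match was found for 27.1% of the 14664 genes with a 3'UTR, and for 11 of the 43 genes here. The stretches below carry matches of 6 of these genes, chosen among those called in the comparison that follows, with the match in capitals.
IL1B: agggctggcagAAAGGGAAcagaaaggttt
REL: aaatgatttttAAAGGGAAaggtaatgatt
TNFAIP3: tcttggctgagAAAGGGAAaagacacacaa
RELB: tccggagaggaAAAGGGAcatggctcccg
BIRC3: tgtaagggcagAAGGGAAagaccccttca
LIF: gtccccagggcAAGGGAAcagcagaactt
They lie in the last exon of the transcript with the longest 3'UTR and in the 3'UTR of the transcript listed in the table, at chr2:112830283-112830312 (minus strand, IL1B), chr2:60927260-60927289 (plus strand, REL), chr6:137881672-137881701 (plus strand, TNFAIP3), chr19:45037983-45038011 (plus strand, RELB), chr11:102338327-102338355 (plus strand, BIRC3) and chr22:30242654-30242682 (minus strand, LIF). TNFAIP3 holds 2 matches, of which 1 is shown, and SOD2 holds 6 in a 3'UTR of 13436 bases. IL11 (8mer), CXCL3, IL23A and NFKBIE (7mer-A1) held matches as well and were not called.

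With miR-204-5p mimics, 12 of the 43 genes rose and 9 fell, and 22 were not called by limma. The genes that rose were BIRC3, EBI3, IL18, IL6, TNFAIP2, LIF, IL32, ICAM1, NFKBIZ, IL36RN, IL24 and CSF3. The genes that fell were IL1A, IL1RN, CSF1, REL, TNFAIP3, SOD2, RELB, NFKB1 and IL1B. The 21 called genes were 48.8% of the 43, against 40.8% of all genes in the table. For the genes that rose the share was 27.9% against 23.9% of all genes, and for those that fell 20.9% against 16.8%. The split of all genes between rises and falls changed with the scaling of the libraries, as given below. No overlap in FPKM between the groups was seen for 27 of the 43 genes, 62.8%, against 53.6% of all genes. These shares lie near those of the whole table, so the counts alone say nothing particular about the 43 genes. The median log2 fold change was 0.07 over the 43 genes and 0.03 over all genes. Nothing in the labels says whether replicates came from separate passages, so the p-values measure the spread between these libraries. In a bulk culture, fewer cells that make a transcript and less transcript per cell cannot be told apart.

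**Figure D1:**
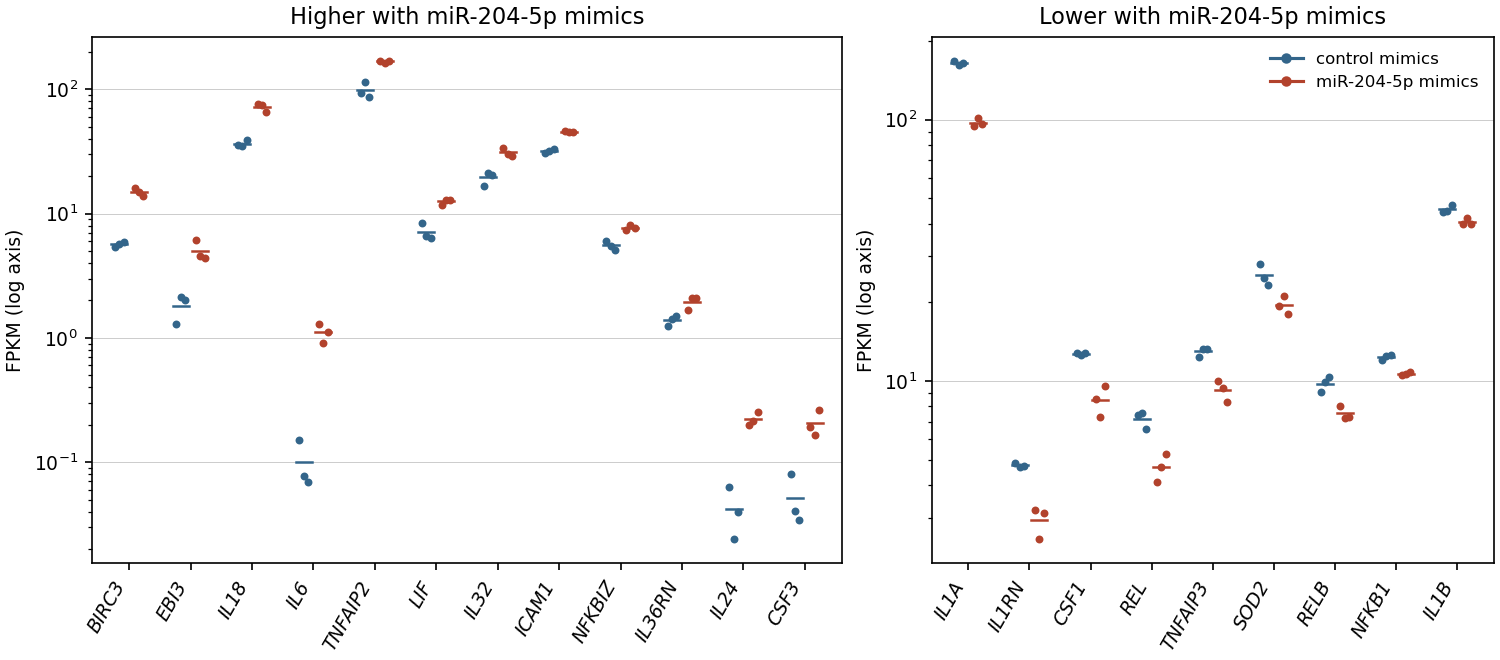
FPKM on a log axis of the 21 called genes in each library, with 12 higher genes on the left and 9 lower genes on the right, each in order of the size of the log2 fold change; points are libraries and short lines are means of 3. In all 21 genes the points of the groups do not overlap, from IL24 and CSF3 below 0.3 FPKM to TNFAIP2 and IL1A above 80 FPKM.

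**Figure D2:**
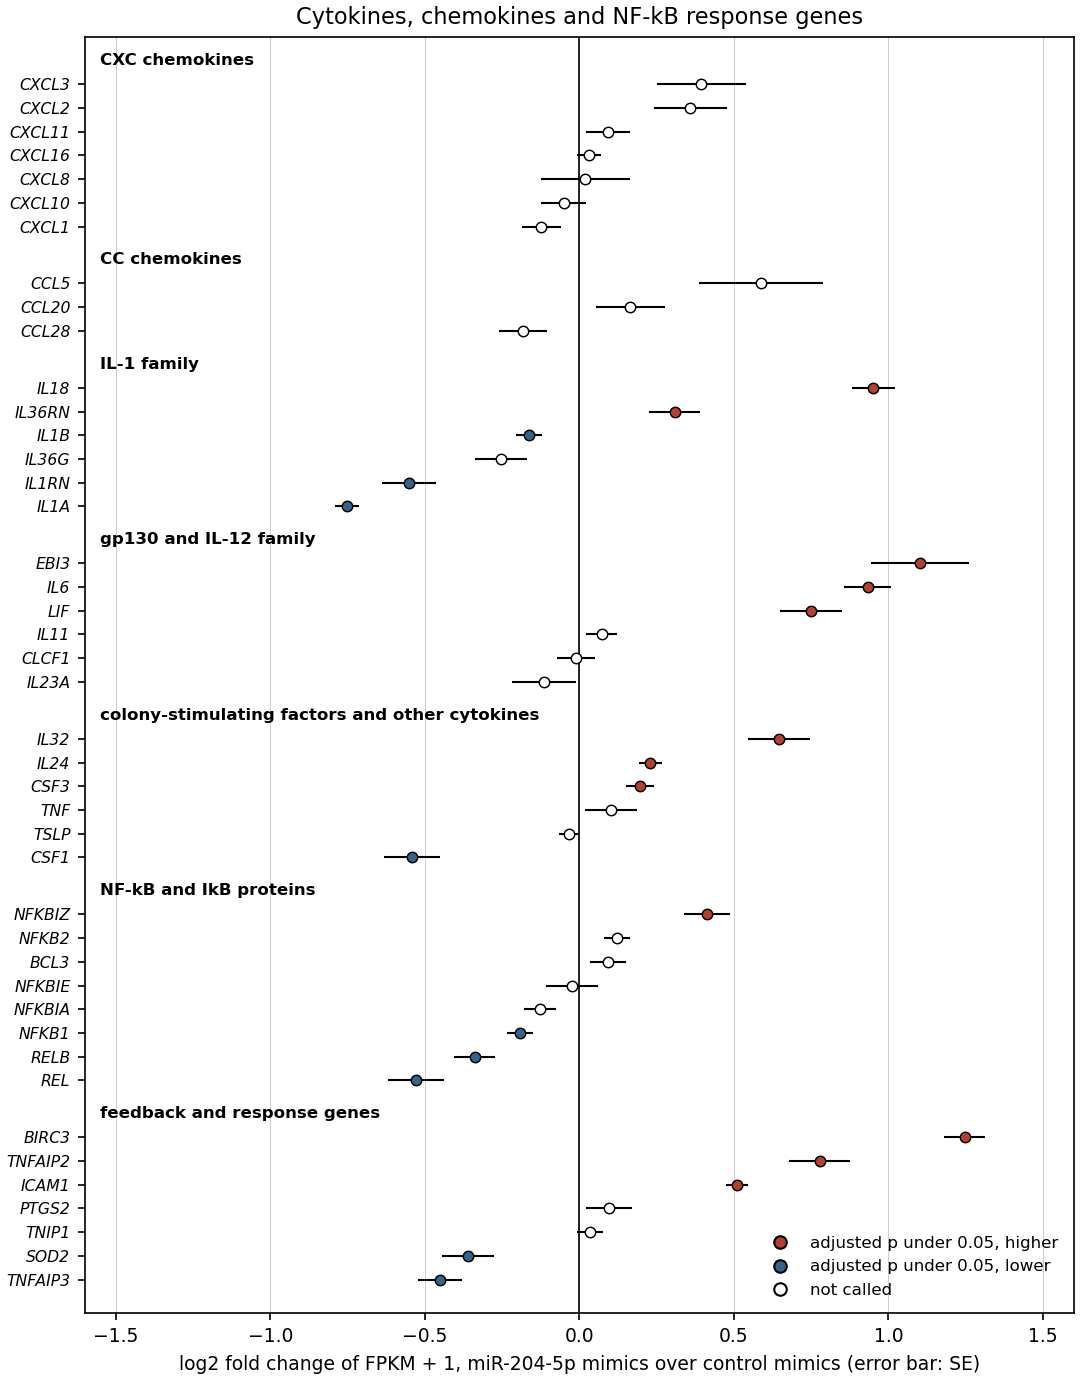
Log2 fold change of FPKM + 1 for the 43 genes by role, with the standard error from limma as the bar; filled points are called and open points are not. Values run from -0.75 for IL1A to 1.25 for BIRC3, and the 10 chemokines at the top are all open.

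The IL-1 family held calls in both directions, with 2 genes higher, 3 lower and IL36G not called (83.3% called, against 40.8% of all genes). IL1A and IL1B are the agonists of the IL-1 receptor, IL1RN its antagonist, IL36G an agonist and IL36RN the antagonist of the IL-36 receptor, and IL18 a related cytokine that caspase-1 matures. Of these genes 5 lie on chromosome 2, from IL1A (chr2:112773915-112784590, minus strand) and IL1B (chr2:112829751-112836903, minus strand) through IL36G and IL36RN to IL1RN (chr2:113111116-113134013, plus strand). In this cluster IL1A, IL1B and IL1RN fell, IL36RN rose and IL36G was not called.

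IL1A had 94.8, 101.1 and 96.0 FPKM with miR-204-5p mimics and 168.1, 161.6 and 164.0 FPKM with control mimics. It fell by 0.75 on the log2 scale (SE 0.0383, adjusted p = 6.74e-05 by limma). All its values with miR-204-5p mimics were far below all control values, and the control mean was 1.69-fold the mean with miR-204-5p mimics. IL1B, its neighbour, stood at 39.8, 41.9 and 39.8 FPKM against 44.3, 44.8 and 47.3 FPKM. The groups were apart but close, and the log2 fold change was -0.16 (SE 0.0419, adjusted p = 0.0219 by limma). This call was lost without mimics replicate 1 or 3, without control replicate 2 or 3 (limma adjusted p from 0.0508 to 0.0624) and with the replicate number as a block (0.0664). For the antagonist IL1RN, 3.22, 2.48 and 3.14 FPKM stood against 4.84, 4.70 and 4.74 FPKM. Its 3 control libraries were nearly equal and all above the others, with a log2 fold change of -0.55 (SE 0.0868, adjusted p = 0.00324 by limma).

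IL18 (chr11:112143251-112164117, minus strand) moved the other way. Its FPKM was 75.6, 74.0 and 65.5 with miR-204-5p mimics and 35.7, 34.9 and 39.2 with control mimics. The lowest library with miR-204-5p mimics was well above the highest control library, the ratio of the means was 1.96, and the log2 fold change was 0.95 (SE 0.0698, adjusted p = 0.000191 by limma). IL36RN reached 1.67, 2.11 and 2.08 FPKM against 1.24, 1.42 and 1.49 FPKM. It rose by 0.31 on the log2 scale (SE 0.0832, adjusted p = 0.0255 by limma), with no overlap. That call was lost under quantile normalization (adjusted p = 0.0625 by limma) and without mimics replicate 2 or 3 or control replicate 1 or 2 (0.05996 to 0.0792). IL36G was not called, at 0.362 to 0.400 FPKM with miR-204-5p mimics and 0.468 to 0.843 FPKM with control mimics (adjusted p = 0.0512 by limma). Scaling to equal sums or medians, quantile normalization or leaving out control replicate 3 brought IL36G under the threshold (0.0116 to 0.0452).

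Among the cytokines that signal through gp130, and the subunits of the IL-12 family, 3 of 6 genes rose, 0 fell in limma and 3 were not called, beside shares of 23.9% called higher and 16.8% called lower over all genes. EBI3 (chr19:4229498-4237531, plus strand), the shared subunit of IL-27 and IL-35, had 6.14, 4.52 and 4.403 FPKM with miR-204-5p mimics and 1.29, 2.12 and 2.01 FPKM with control mimics. The groups were wide apart, with means in a ratio of 2.78 and a log2 fold change of 1.10 (SE 0.159, adjusted p = 0.00227 by limma). LIF (chr22:30240447-30246851, minus strand), a gp130 cytokine first known for holding stem cells undifferentiated, had 11.8, 12.8 and 12.95 FPKM against 8.34, 6.57 and 6.33 FPKM. It rose by 0.75 on the log2 scale (SE 0.10, adjusted p = 0.00168 by limma), without overlap and although its 3'UTR holds the 7mer-A1 match shown above.

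IL6 (chr7:22725884-22732002, plus strand), the founding gp130 cytokine, was listed at 1.30, 0.908 and 1.11 FPKM with miR-204-5p mimics and at 0.152, 0.0778 and 0.0695 FPKM with control mimics. All libraries with miR-204-5p mimics were far above all control libraries, although at low levels throughout. If the length of its listed transcript was used, the control values equal 3.3 to 6.6 of the smallest steps and the others 44.5 to 53.1. The log2 fold change was 0.93 (SE 0.0767, adjusted p = 0.000280 by limma) with 1 added to each FPKM and 2.60 with 0.1 added. An exact permutation test of the 6 libraries gave p = 0.1, two-sided, the smallest value that 3 against 3 allow.

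The other 3 genes of this group were not called. CLCF1, a ligand of the ciliary neurotrophic factor receptor, had 2.43 to 2.74 FPKM with miR-204-5p mimics and 2.53 to 2.69 FPKM with control mimics. IL23A, the subunit particular to IL-23, had 1.30 to 1.55 FPKM against 1.30 to 1.98 FPKM, and both these genes overlapped between groups. IL11 was at 0.185 to 0.209 FPKM against 0.0616 to 0.178 FPKM, with a log2 fold change of 0.07 (adjusted p = 0.310 by limma) and an 8mer at 2 places of its 3'UTR.

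The receptor genes of IL6 fell while IL6 rose. IL6R, the binding chain, fell from 11 ± 0.531 (SD, n = 3) to 4.33 ± 0.228 FPKM, or -1.17 on the log2 scale (adjusted p = 7.0e-05 by limma). IL6ST, which is gp130 itself, fell from 7.55 ± 0.622 to 4.46 ± 0.265 FPKM, or -0.65 on the log2 scale (adjusted p = 0.000974 by limma).

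Among colony-stimulating factors and the remaining cytokines, IL32, IL24 and CSF3 rose, CSF1 fell, and TNF and TSLP were not called (66.7% called, against 40.8% of all genes). CSF1, the growth factor of macrophages, had 8.56, 7.27 and 9.58 FPKM with miR-204-5p mimics and 12.8, 12.6 and 12.8 FPKM with control mimics. Its control libraries lay within a narrow band above the others, with a log2 fold change of -0.54 (SE 0.0904, adjusted p = 0.00407 by limma). The transcript listed for CSF1 has 577 bases, where the longest of the gene has 4210.

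IL32 (chr16:3065297-3069667, plus strand), a cytokine made by epithelial and lymphoid cells, had 34.0, 30.2 and 28.97 FPKM against 16.8, 21.3 and 20.5 FPKM. The groups did not overlap and the log2 fold change was 0.65 (SE 0.10, adjusted p = 0.00308 by limma). IL24, of the IL-10 family, was barely present, at 0.200, 0.213 and 0.255 FPKM against 0.0634, 0.0239 and 0.0398 FPKM, and its log2 fold change was 0.23 (adjusted p = 0.00388 by limma). CSF3, the growth factor of granulocytes, was at 0.191, 0.165 and 0.264 FPKM against 0.0805, 0.0405 and 0.0343 FPKM, or 0.20 on the log2 scale (adjusted p = 0.0138 by limma). Both genes were apart between groups, but for the lengths of their listed transcripts the control values would equal 0.7 to 2.4 of the smallest steps, so no ratio of means is given.

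TNF was listed at 0 in control replicate 2 and at up to 0.226 FPKM in the other control libraries, against 0.150 to 0.275 FPKM with miR-204-5p mimics. TSLP, a cytokine of epithelial barriers, stayed at or below 0.0642 FPKM in all 6 libraries. Neither gene was called (adjusted p = 0.382 and 0.445 by limma).

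Among the 10 chemokines measured, 0 were called by limma in either direction (0.0%, against 40.8% of all genes), and 3 had an unadjusted p under 0.05, each with a higher mean with miR-204-5p mimics. These 3 are CXCL2, CXCL3 and CCL5. CXCL8, CXCL1, CXCL2 and CXCL3 act on the neutrophil receptors CXCR1 and CXCR2, CXCL10 and CXCL11 on CXCR3 of T cells, and CXCL16 is a membrane-bound ligand of CXCR6. CXCR2 itself was at 0.381 ± 0.0727 (SD, n = 3) FPKM with miR-204-5p mimics and 0.472 ± 0.148 FPKM with control mimics, with overlap.

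CXCL8 (chr4:73740506-73743716, plus strand) had 10.5, 9.57 and 6.91 FPKM with miR-204-5p mimics and 8.37, 9.66 and 8.23 FPKM with control mimics. The groups overlapped fully, and the log2 fold change of 0.02 (SE 0.144, adjusted p = 0.930 by limma) changed sign with the scaling of the libraries. CXCL1 (chr4:73869404-73871242, plus strand) was the most abundant of the listed neutrophil chemokines by FPKM, a level per length, at 32.03, 34.1 and 30.6 FPKM against 32.6, 37.1 and 36.0 FPKM. Only the highest library with miR-204-5p mimics passed the lowest control library (-0.12 on the log2 scale, adjusted p = 0.168 by limma).

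CXCL2 had 3.40, 2.23 and 2.50 FPKM against 1.78, 1.91 and 1.91 FPKM, and CXCL3 had 1.99, 1.79 and 1.65 FPKM against 1.27, 0.711 and 1.51 FPKM. For both the groups were apart by a small gap, with log2 fold changes of 0.36 (SE 0.118, adjusted p = 0.0508 by limma) and 0.39 (SE 0.144, adjusted p = 0.0697 by limma). Depending on the setting CXCL2 passed or missed the threshold, with a limma adjusted p of 0.0462 at a pseudocount of 0.1, 0.0416 after the filter on a mean FPKM of 1, 0.0470 with no trend and 0.0318 without mimics replicate 2. CXCL3 passed it in 1 alternative, without control replicate 3 (0.0352). CXCL1, CXCL2 and CXCL3 are close copies of each other, and how reads that fit more than one of them were assigned is not given in the sources used here, so the split of reads among the 3 is uncertain.

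CXCL16 was steady at 58.4, 56.2 and 60.9 FPKM against 57.4, 57.6 and 56.6 FPKM, and its log2 fold change of 0.03 (SE 0.0394, adjusted p = 0.570 by limma) also changed sign with the scaling. Its exons share 85 bases with MED11 on the opposite strand, and whether counting used the strand is not given in the sources used here. CCL5, a chemokine that draws T cells and monocytes, had 1.40, 2.88 and 1.65 FPKM against 0.681, 1.30 and 0.872 FPKM. Its groups were apart by a gap smaller than the spread within either, with a log2 fold change of 0.59 (SE 0.201, adjusted p = 0.0568 by limma). CCL5 was called at a pseudocount of 0.1, after the filter on a mean FPKM of 1, under the replicate block and without mimics replicate 1 (0.00906 to 0.0484).

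The remaining chemokines of the list were under 1 FPKM. CCL20, the ligand of CCR6, had 0.587 to 0.701 FPKM against 0.259 to 0.722 FPKM, and the mucosal chemokine CCL28 had 0.428 to 0.483 FPKM against 0.463 to 0.749 FPKM. Both were called only when a control library was left out, CCL20 without replicate 2 (0.0320) and CCL28 without replicate 3 (0.0136). The transcript listed for CCL28 is annotated as a target of nonsense-mediated decay. CXCL10, an interferon-inducible chemokine, ranged from 0.0801 to 0.196 FPKM against 0.0605 to 0.243 FPKM, which is 3 to 6 of the smallest steps against 2 to 8. CXCL11 was listed at 0 in mimics replicate 2 and in control replicates 1 and 2, and at no more than 0.202 FPKM elsewhere.

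**Figure D3:**
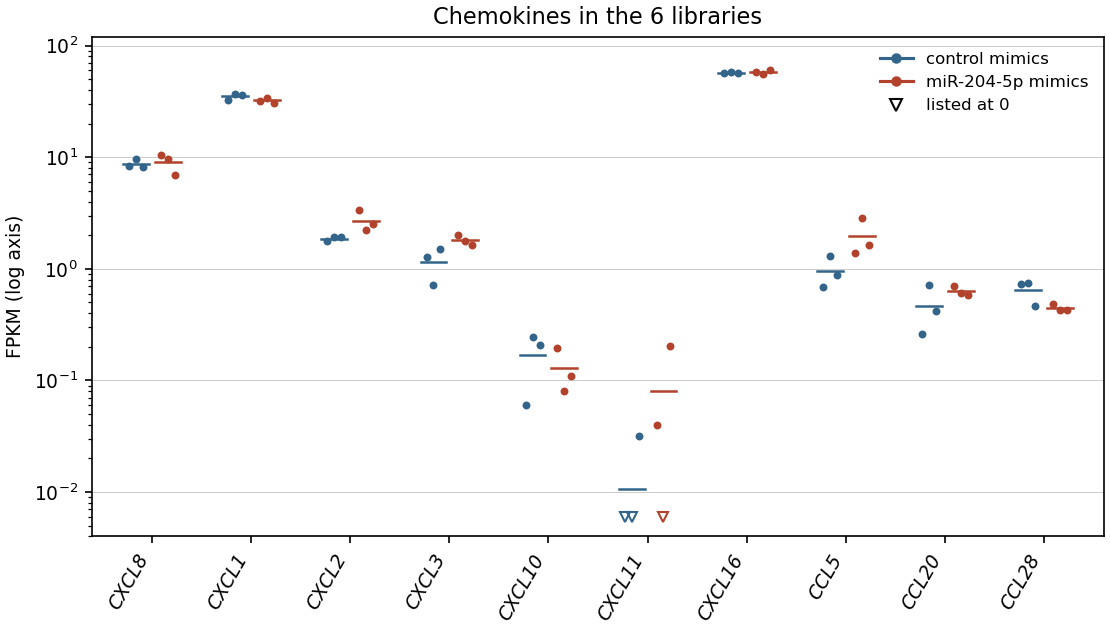
FPKM on a log axis of the 10 chemokines in the 6 libraries; points are libraries, short lines are means of 3, and triangles at the foot mark libraries where the gene is listed at 0. CXCL16 and CXCL1 lie between 30 and 61 FPKM in every library, and the groups are apart only for CXCL2, CXCL3 and CCL5.

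Among the 8 NF-kB and IkB proteins, REL, RELB and NFKB1 fell, NFKBIZ rose and 4 were not called. These 4 called genes of 8 stand beside 40.8% called over all genes, with 23.9% called higher and 16.8% called lower. REL (chr2:60881521-60931610, plus strand), which encodes c-Rel, had 4.12, 4.67 and 5.24 FPKM with miR-204-5p mimics and 7.42, 7.53 and 6.57 FPKM with control mimics. All libraries with miR-204-5p mimics were below all control libraries, and the log2 fold change was -0.53 (SE 0.0910, adjusted p = 0.00470 by limma). RELB, the usual partner of the processed NFKB2 product, had 8.04, 7.2 and 7.31 FPKM against 9.09, 9.91 and 10.3 FPKM. It was lower in each library, with a log2 fold change of -0.34 (SE 0.0671, adjusted p = 0.00796 by limma). NFKB1 (chr4:102501329-102617302, plus strand), whose precursor is cut to the DNA-binding subunit of the classical dimer, had 10.5, 10.6 and 10.9 FPKM against 12.01, 12.4 and 12.6 FPKM. That difference was small and even, a log2 fold change of -0.19 (SE 0.0426, adjusted p = 0.0122 by limma).

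NFKB2 had 39.4, 36.7 and 39.9 FPKM against 35.0, 35.5 and 35.7 FPKM, apart by a small gap and not called (0.12 on the log2 scale, adjusted p = 0.0593 by limma). Without mimics replicate 2 its limma adjusted p was 0.0262. Its listed transcript has 585 bases, where the longest has 3416. The subunit RELA, outside the list of 43, was at 45.4 ± 3.48 (SD, n = 3) FPKM with miR-204-5p mimics and 43.3 ± 6.81 FPKM with control mimics (adjusted p = 0.650 by limma).

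Of the IkB genes, NFKBIZ alone was called. NFKBIA (chr14:35401511-35404746, minus strand), the classical IkB, had 95.3, 87.7 and 89.2 FPKM against 99.0, 104.3 and 94.5 FPKM. One library of each group lay in the range of the other, and the log2 fold change was -0.13 (SE 0.0514, adjusted p = 0.0919 by limma). Scaled to equal sums or to equal medians it was called lower (0.0307 and 0.0379). NFKBIZ, a nuclear IkB that acts as a coactivator for some NF-kB target genes, had 7.32, 8.16 and 7.65 FPKM against 6.05, 5.49 and 5.10 FPKM. It rose by 0.41 on the log2 scale (SE 0.0734, adjusted p = 0.00530 by limma), without overlap, on a listed transcript of 1338 bases where the longest has 3923. NFKBIE, another cytoplasmic IkB, had 7.63 to 9.13 FPKM against 7.998 to 9.39 FPKM, and BCL3, a nuclear IkB, 12.2 to 13.9 FPKM against 11.7 to 12.2 FPKM. Both overlapped between groups and were not called (adjusted p = 0.850 and 0.254 by limma).

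Among the 7 feedback and response genes BIRC3, TNFAIP2 and ICAM1 rose and TNFAIP3 and SOD2 fell (71.4% called, against 40.8% of all genes). On the scale of log2(FPKM + 1) BIRC3 had the largest rise of the 43 genes, whereas with 0.1 added to each FPKM the log2 fold change was 2.60 for IL6, 1.44 for EBI3 and 1.37 for BIRC3. BIRC3 (chr11:102317450-102339394, plus strand), a ubiquitin ligase of the TNF receptor complex and an NF-kB target, had 15.98, 14.8 and 13.7 FPKM with miR-204-5p mimics and 5.41, 5.70 and 5.86 FPKM with control mimics. The lowest value with miR-204-5p mimics was far above the highest control value, the means stood in a ratio of 2.62, and the log2 fold change was 1.25 (SE 0.0666, adjusted p = 7.42e-05 by limma). On the scale with 1 added it ranked 49 from the top among all 14959 genes. TNFAIP2, named for its induction by TNF, had 169.6, 162.8 and 169.4 FPKM against 92.5, 114.2 and 86.9 FPKM. The groups were far apart, with a log2 fold change of 0.78 (SE 0.0980, adjusted p = 0.00134 by limma). Its listed transcript has 421 bases, where the longest has 4683. ICAM1 (chr19:10270835-10286615, plus strand), an adhesion molecule for leukocyte integrins, had 45.8, 45.6 and 45.6 FPKM against 30.8, 31.8 and 32.8 FPKM. Libraries within a group were nearly equal, and the log2 fold change was 0.51 (SE 0.0363, adjusted p = 0.000174 by limma).

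TNFAIP3 (chr6:137867188-137883311, plus strand), a ubiquitin-editing enzyme that ends NF-kB signalling, had 9.97, 9.41 and 8.35 FPKM against 12.4, 13.3 and 13.2 FPKM. It fell by 0.45 on the log2 scale (SE 0.0705, adjusted p = 0.00313 by limma), with no overlap. SOD2, the superoxide dismutase of mitochondria, had 19.4, 21.1 and 18.1 FPKM against 28.0, 24.8 and 23.3 FPKM. It was lower in each library, with a log2 fold change of -0.36 (SE 0.0832, adjusted p = 0.0144 by limma). Its exons share 298 bases with WTAP on the opposite strand, which fell as well (-0.26 on the log2 scale, adjusted p = 0.0127 by limma), and reads in those shared bases cannot be told apart without strand. TNIP1, a partner of the TNFAIP3 protein, stayed at 63.3, 63.3 and 66.4 FPKM against 65.2, 62.3 and 60.9 FPKM, and its log2 fold change of 0.03 (adjusted p = 0.538 by limma) changed sign with the scaling. PTGS2, the inducible cyclooxygenase, had 0.913 to 1.01 FPKM against 0.729 to 1.02 FPKM, with overlap.

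Set against the seed matches, the 9 genes that fell included all but IL11 of the 5 genes with an 8mer. These were IL1B, REL, SOD2 and TNFAIP3. The call of IL1B was kept in only 8 of 13 alternatives. The 8mers of SOD2 lie at bases 7819 and 11659 after the stop codon, in a 3'UTR of 13436 bases. Each gene was classed by its best match. Of all 1261 genes of the table with an 8mer 33.5% were called lower, against 25.5% with a 7mer-m8, 22.3% with a 7mer-A1 and 13.5% with no match. Called higher were 13.3% of all genes with an 8mer, 16.6% with a 7mer-m8, 19.1% with a 7mer-A1 and 27.2% with no match. The single gene with a 7mer-m8, RELB, fell too. Of the 5 genes with a 7mer-A1 as best match, BIRC3 and LIF rose and CXCL3, IL23A and NFKBIE were not called. Among the 32 genes with no match in this 3'UTR, 10 rose, 4 fell (IL1A, IL1RN, CSF1 and NFKB1) and 18 were not called, so 4 of the 9 that fell, IL1A with the largest fall among them, held no match there. For all genes of the table the median log2 fold change was -0.08 with an 8mer, -0.03 with a 7mer-m8, -0.003 with a 7mer-A1 and 0.06 with no match. The median of the 5 genes with an 8mer was -0.36. A match describes the sequence, and pairing at these places was not measured.

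**Figure D4:**
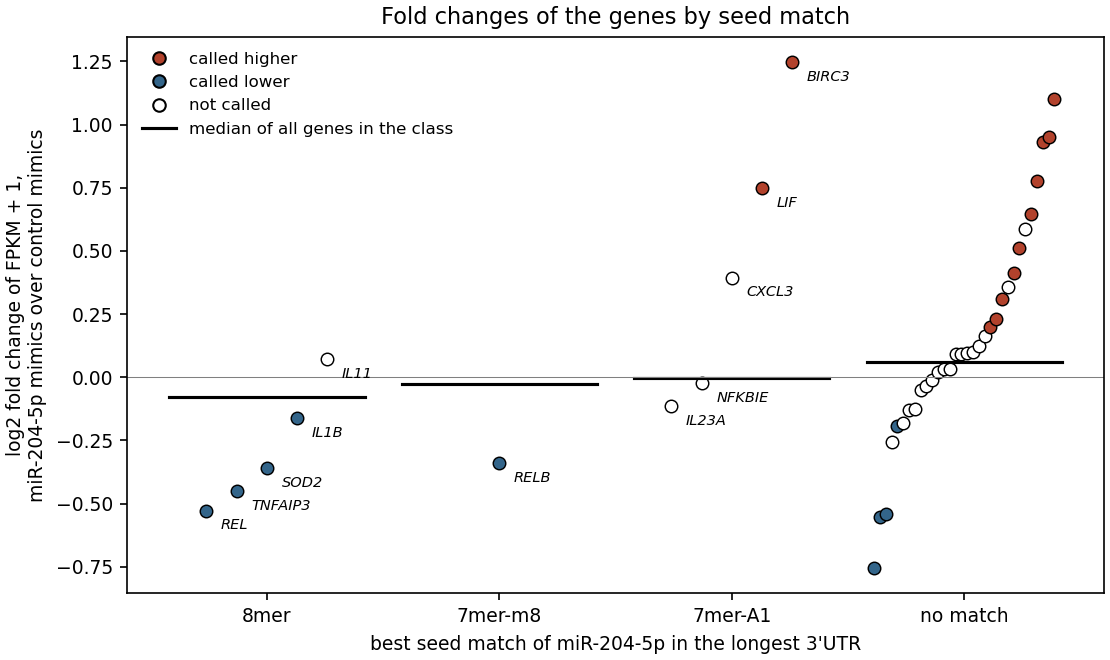
Log2 fold change of FPKM + 1 of the 43 genes by the best seed match in the longest 3'UTR, with red points called higher, blue points called lower and open points not called; black lines are medians over all genes of the class. Of the 5 genes with an 8mer 4 are blue, and BIRC3 at 1.25 and LIF at 0.75 are the highest with a 7mer-A1.

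Promoters of 34 of the 43 genes were found in RefSeq on GRCh38.p14, as 250 bases before and 50 after each listed start. The 10-base NF-kB consensus, searched on both strands, stood in at least 1 promoter of 21 of the 34 genes (61.8%) and of 17.4% of the 11452 genes of the table with a promoter. The shorter kB-like motif GGAANNNCC, which can overlap it, stood in 23 (67.6%) against 28.6%, and the AP-1 motif TGANTCA in 7 (20.6%) against 7.5%. Counted by promoter and not by gene, the shares were 44.4%, 53.7% and 14.8% of 54 promoters of listed genes, CXCL5 and CSF2 among them. Over all 35116 promoters they were 11.3%, 20.1% and 7.7%. The list was chosen by name to include genes of the NF-kB response, so its larger share of NF-kB motifs cannot be read as a result of these libraries. With the consensus 6 genes rose, 3 fell and 12 were not called, and without it 3 rose, 4 fell and 6 were not called. The stretches below are shown because closely alike sites stood before a RefSeq start of genes that rose (IL6, BIRC3, IL32), fell (REL, NFKB1, TNFAIP3) or were not called (CXCL1, CXCL2, CXCL3, NFKBIA). The match is in capitals and all are read along the strand of the gene.
IL6: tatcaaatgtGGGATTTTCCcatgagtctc
BIRC3: tttgggtcatGGAAATCCCCgagtgggttt
IL32: cctgtactcaGGGAGTTTCCccagccagct
REL: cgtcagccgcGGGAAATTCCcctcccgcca
NFKB1: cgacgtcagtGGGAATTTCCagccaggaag
TNFAIP3: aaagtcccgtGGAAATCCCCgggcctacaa
CXCL1: ctggaactccGGGAATTTCCctggcccggg
CXCL2: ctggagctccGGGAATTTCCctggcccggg
CXCL3: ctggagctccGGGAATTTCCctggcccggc
NFKBIA: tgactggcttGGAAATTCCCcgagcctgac
They lie at chr7:22727117-22727146 (IL6), chr11:102317275-102317304 (BIRC3), chr16:3065294-3065323 (IL32), chr2:60881517-60881546 (REL), chr4:102501300-102501329 (NFKB1), chr6:137867194-137867223 (TNFAIP3), chr4:73869304-73869333 (CXCL1), chr4:74099254-74099283 (CXCL2), chr4:74038749-74038778 (CXCL3) and chr14:35404811-35404840 (NFKBIA), on the minus strand for CXCL2, CXCL3 and NFKBIA and on the plus strand for the others. The capitals of NFKB1, CXCL1, CXCL2 and CXCL3 are the same 10 bases, and of these genes NFKB1 fell and the chemokines were not called. The matches of IL6, IL32, REL, TNFAIP3 and CXCL2 lie before a RefSeq start but within the span of the transcript listed in the table. Binding of NF-kB was not measured in these libraries.

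The signalling proteins that lead to NF-kB, a list of 36 genes all present in the table, held 4 genes that rose and 4 that fell, 22.2% called against 40.8% of all genes, and a median log2 fold change of -0.01. MAP3K14, the kinase of the alternative pathway, rose from 6.51 ± 0.362 (SD, n = 3) to 9.62 ± 0.321 FPKM, or 0.50 on the log2 scale (adjusted p = 0.000922 by limma). RIPK1, a kinase of the TNF receptor complex, fell from 8.09 ± 0.379 to 5.81 ± 0.197 FPKM (-0.42 on the log2 scale, adjusted p = 0.00174 by limma). MALT1, a protease of the pathway, fell from 4.39 ± 0.135 to 3.06 ± 0.106 FPKM (-0.41 on the log2 scale, adjusted p = 0.00196 by limma).

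Of 38 receptor genes for these cytokines, 27 were in the table, of which 3 rose and 9 fell, 44.4% called against 40.8% of all genes. Besides IL6R and IL6ST, IL7R, a receptor chain shared with TSLP, rose from 0.827 ± 0.0660 (SD, n = 3) to 4.31 ± 0.333 FPKM (1.54 on the log2 scale, adjusted p = 5.6e-05 by limma), and CSF2RA, the chain that binds GM-CSF, from 1.40 ± 0.169 to 3.59 ± 0.200 FPKM (0.94 on the log2 scale, adjusted p = 0.000255 by limma). Of 20 genes of cytokine processing and mRNA decay, 4 rose and 5 fell, 45.0% called against 40.8%. GSDMD, the pore-forming protein through which mature IL-1 and IL-18 leave cells, rose from 24.8 ± 1.07 to 38.9 ± 1.03 FPKM (0.63 on the log2 scale, adjusted p = 0.000169 by limma), and CASP4, an inflammatory caspase that cleaves it, from 85.5 ± 3.87 to 127.6 ± 5.39 FPKM (0.57 on the log2 scale, adjusted p = 0.000322 by limma). PYCARD, the adaptor of inflammasomes, fell from 50.7 ± 0.781 to 36.6 ± 2.04 FPKM (-0.46 on the log2 scale, adjusted p = 0.000608 by limma).

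A list of 36 other genes known to be inducible through NF-kB held 30 in the table, of which 11 rose, 3 fell and 16 were not called, 46.7% called against 40.8% of all genes, with a median log2 fold change of 0.05. LTB, a membrane cytokine of the TNF family, rose from 11.97 ± 2.195 (SD, n = 3) to 44.5 ± 2.32 FPKM, or 1.82 on the log2 scale (adjusted p = 0.000133 by limma). SAA2, an acute-phase protein, rose from 5.30 ± 0.155 to 15.4 ± 1.198 FPKM (1.38 on the log2 scale, adjusted p = 6.0e-05 by limma). On the same list the chemokine CXCL6 was called higher and the chemokine CCL22 was not called.

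Apart from CD14, CD68, LYZ and COL1A1, the markers of leukocytes, fibroblasts and endothelium had a mean under 1 FPKM over the 6 libraries. Of 11 leukocyte markers measured 0 rose and 1, CD14, fell by limma, from 16.3 ± 0.423 (SD, n = 3) to 12.4 ± 0.965 FPKM, and the list summed to 27.2 to 30.7 FPKM with miR-204-5p mimics and 32.8 to 34.2 FPKM with control mimics. Of 4 fibroblast markers 2 rose, at a sum of 9.81 to 11.6 FPKM against 8.58 to 9.41 FPKM, nearly all of it COL1A1. Of 4 endothelial markers 1 rose, at a sum of 0.746 to 0.949 FPKM against 0.686 to 0.772 FPKM. Of 10 squamous markers 4 rose and 5 fell (90.0% called, against 40.8% of all genes). Their sum was 1002 to 1074 FPKM against 1110 to 1123 FPKM. Of the leukocyte markers 9.1% were called. The rises among fibroblast and endothelial markers stand beside 23.9% called higher over all genes, on lists of only 4 genes each. The part of all these markers in the changes of the cytokine genes was not tested.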

How the data were processed

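Total RNA of UM-SCC1 cells was made into Illumina TruSeq libraries by the authors and sequenced on Illumina HiSeq X machines. The submitters' processing notes name HISAT2, StringTie and hg38, with versions not given in the sources used here. The authors deposited FPKM per gene and library, with 1 listed transcript a gene. Their fold changes, p-values and FDR, from edgeR, stand in the same table and were not used. Since FPKM cannot enter a count test, limma 3.58.1 (R 4.3.3) was run on log2(FPKM + 1), with lmFit, a trended eBayes, a two-sided test and no filter, 3 libraries against 3, with Benjamini-Hochberg adjustment over 14959 genes and a threshold of 0.05. The fit was tested on simulated data. A pseudocount of 1 was used, and alternatives were 0.1, a mean FPKM of at least 1, 3 scalings, a replicate block, no trend and each library left out.

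The smallest FPKM step was sought within a range narrowed after a first result had been seen. It may stand for a read or a fragment, and the depth of the libraries is otherwise unknown. Listed transcripts were matched to GENCODE 29, where all 44 rows of the chosen genes had the same coordinates. Seed matches came from GENCODE 29 and promoters and the miRNA from RefSeq, GRCh38.p14. Scripts ran under Python 3.11.15 with scipy 1.17.1, pandas 2.3.3 and numpy 2.4.6.

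The genes and lists were chosen with earlier results of these data known. Every chosen gene could be named, and from each other list the 3 called genes with the largest change whose mean FPKM was 1 or more and whose groups were apart, plus RELA, IL6R, IL6ST, CXCR2 and genes that overlap a chosen gene. PTPRC, CD68, LYZ and COL1A1 were named after their values had been seen, and CXCL6 and CCL22 after their calls had been seen. One stretch around a seed match is not reported here.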

Additional observations from a re-analysis of the deposited data

How the results depend on the processing

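Under the 13 alternatives the number of the 43 genes that rose stayed between 11 and 14 and the number that fell between 8 and 11, and 19 of the 21 called genes kept their call in each alternative that tested them. The filter on a mean FPKM of at least 1 left IL6, IL24 and CSF3 untested. IL1B and IL36RN lost theirs in 5 alternatives each, as given above, and 8 genes not called (CCL5, CCL20, CCL28, CXCL2, CXCL3, IL36G, NFKB2, NFKBIA) passed the threshold in at least 1. Small log2 fold changes, none of them called, changed sign. Scaled to equal sums they were -0.021 for CXCL8, -0.012 for CXCL16 and -0.009 for TNIP1, scaled to equal medians -0.021, -0.013 and -0.010, and quantile normalization gave -0.009 for CXCL8. Leaving out 1 library at a time gave -0.09 to 0.178 for CXCL8, -0.046 to 0.016 for CLCF1 and -0.075 to 0.041 for NFKBIE. With the replicate number as a block (replicate block), 13 of the 43 genes rose and 8 fell, and over all genes 2999 rose and 2097 fell, against 3578 and 2520 without it. Scaled to equal sums, 3080 of all genes rose and 2885 fell. With equal medians these were 3106 and 2948, and with quantile normalization 3043 and 3026. The excess of rises over falls among all genes was thus smaller after each scaling. Deviations of libraries that share a number had correlations of -0.040, -0.021 and -0.108 over 11504 genes, and those with different numbers -0.069 to 0.110. No deviation shared by equal numbers was seen. The labels do not say whether equal numbers mark cultures made together, and these correlations cannot decide it. The cause of these changes was not tested. Low FPKM limits what can be said of the 12 genes under 1 FPKM.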

Other observations

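AP-1 and other immediate early regulators, which act on many of the same cytokine promoters, had 5 of 14 genes higher, 3 lower and 6 not called by limma (57.1% called, against 40.8% of all genes; median log2 fold change -0.05). EGR1, an early growth response factor, fell from 5.33 ± 0.772 (SD, n = 3) to 2.11 ± 0.314 FPKM (-1.02 on the log2 scale, adjusted p = 0.000880 by limma). FOSL2, a FOS family subunit of AP-1, fell from 41.0 ± 3.24 to 23.8 ± 0.973 FPKM (-0.76 on the log2 scale, adjusted p = 0.000322 by limma). ATF3, a stress-induced repressor on the same list, rose from 3.88 ± 0.252 to 6.78 ± 0.135 FPKM (0.67 on the log2 scale, adjusted p = 0.000389 by limma).

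Transfected RNA can be sensed by cells, and 30 genes of RNA sensing and the interferon response were in the table. Of these 4 rose, 3 fell and 23 were not called, 23.3% called against 40.8% of all genes. OAS2 and OAS1, synthases of the second messenger that activates RNase L, fell from 5.88 ± 1.33 (SD, n = 3) to 3.08 ± 0.178 FPKM (-0.74 on the log2 scale, adjusted p = 0.00710 by limma) and from 12.2 ± 1.96 to 8.07 ± 0.437 FPKM (-0.53 on the log2 scale, adjusted p = 0.0107 by limma). DHX58, a regulator of RNA sensors, rose from 5.91 ± 0.521 to 7.73 ± 0.373 FPKM (0.34 on the log2 scale, adjusted p = 0.0113 by limma). The control mimics are transfected RNA too, so a response common to both groups would not appear in this comparison.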
